A study of Mus musculus with 6 samples.

Results

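The circRNAs of 9 genes of glycogen metabolism were examined in mouse aortas by diet. Every entry of the deposited circRNA table whose host gene was Phkb, Phka1, Phka2, Gbe1, Gys1, Pygb, Pygl, Ugp2 or Gsk3b was taken, which gave 22 of the 10023 entries, from 4 of the 9 genes. Phkb had 14 entries, Phka2 had 4, Gbe1 had 3 and Phka1 had 1. Gys1, Pygb, Pygl, Ugp2 and Gsk3b had no entry in the table.

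The aortas came from male ApoE-/- mice of the C57BL/6 strain, which lack apolipoprotein E. Mice aged 6 weeks were placed on a high fat diet (HFD), to which cholesterol and cholic acid were added, or on a normal diet, called chow here, and both diets lasted 12 weeks. There were 3 aortas on each diet, and the lack of apolipoprotein E was shared by both groups. An exonic circRNA joins the end of a downstream exon to the start of an upstream exon. Reads across this joint, the back-splice, were counted. Besides 8992 exonic entries, the table holds 932 intronic and 99 intergenic ones, and their reads are included in the library totals. The chow libraries, replicates 1 to 3 in order here and below, held 7585, 7142 and 7476 back-spliced reads, and the HFD libraries held 4694, 5621 and 4875.

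Glycogen is built by glycogen synthase and the branching enzyme, and it is broken down by glycogen phosphorylase. Phosphorylase kinase switches glycogen phosphorylase on in response to calcium and to hormones that act through cyclic AMP, and it consists of a catalytic subunit with alpha, beta and calmodulin regulatory subunits. Vascular smooth muscle holds this enzyme system, in which calcium links contraction to glycogen breakdown.

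Phkb encodes the beta regulatory subunit of phosphorylase kinase and lies on chromosome 8 from 85840959 to 86061376 on the plus strand (GRCm38). Its 14 entries held 97 reads, and 45 of the 3981 host genes in the table, Phkb included, held at least that many. Summed over its entries, Phkb was counted 26, 15 and 31 times on chow against 7, 9 and 9 times on the HFD. After scaling to the effective library size, these were 8.15, 9.13 and 10.9 normalized reads on the HFD and 24.0, 13.7 and 27.0 on chow. Every HFD aorta lay below every chow aorta, and chow replicate 2 was the nearest to the HFD aortas. The means were 9.39 ± 1.39 normalized reads on the HFD and 21.6 ± 6.97 on chow (SD, n = 3 each). As a share of all back-spliced reads, Phkb took 0.149%, 0.160% and 0.185% on the HFD and 0.343%, 0.210% and 0.415% on chow, again without overlap.

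In edgeR's quasi-likelihood test of host gene sums, Phkb fell by 1.19 on the log2 scale (standard error 0.45, unadjusted p = 0.0077), and with Benjamini-Hochberg adjustment over the 2240 host genes tested its adjusted p was 0.663. The sum holds the circle of exons 3 to 5, which the study had picked as lower in these aortas. It met the criteria of the study, which require more than a change of 1 on the log2 scale in either direction and p below 0.05 without adjustment. These criteria took 103 of the 2240 host genes, which is 4.60%, and 65 of them, or 2.90% of those tested, were lower on the HFD. Among the 397 host genes with at least 20 reads, which are nearer to Phkb in depth, 27 or 6.80% were called lower, and 53, Phkb included, had a log2 fold change at or below that of Phkb. Sums lower on the HFD without overlap were found for 6.03% of the host genes tested. The sum no longer met the criteria with library size alone, at -0.96, or without chow replicate 3, at -0.996, and it was -2.27 with the entries given by Ensembl identifier left out, a setting chosen after seeing the data. The median log2 fold change of all host genes was -0.17 with TMM and 0.04 with library size alone, and relative to these medians Phkb was at -1.02 and -1.004. The share of called host genes that were lower on the HFD was 63.1% with TMM and 46.7% with library size alone.

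Of the 13 exonic Phkb entries, 8 started at exon 3, and 9 spanned exons 3 to 5. Exons are numbered on the listed transcript ENSMUST00000160611, which is annotated as a target of nonsense-mediated decay. In 3 instances, entries had starts 1 base apart and the same end, so that the 14 entries described 11 circles.

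**Figure D1:**
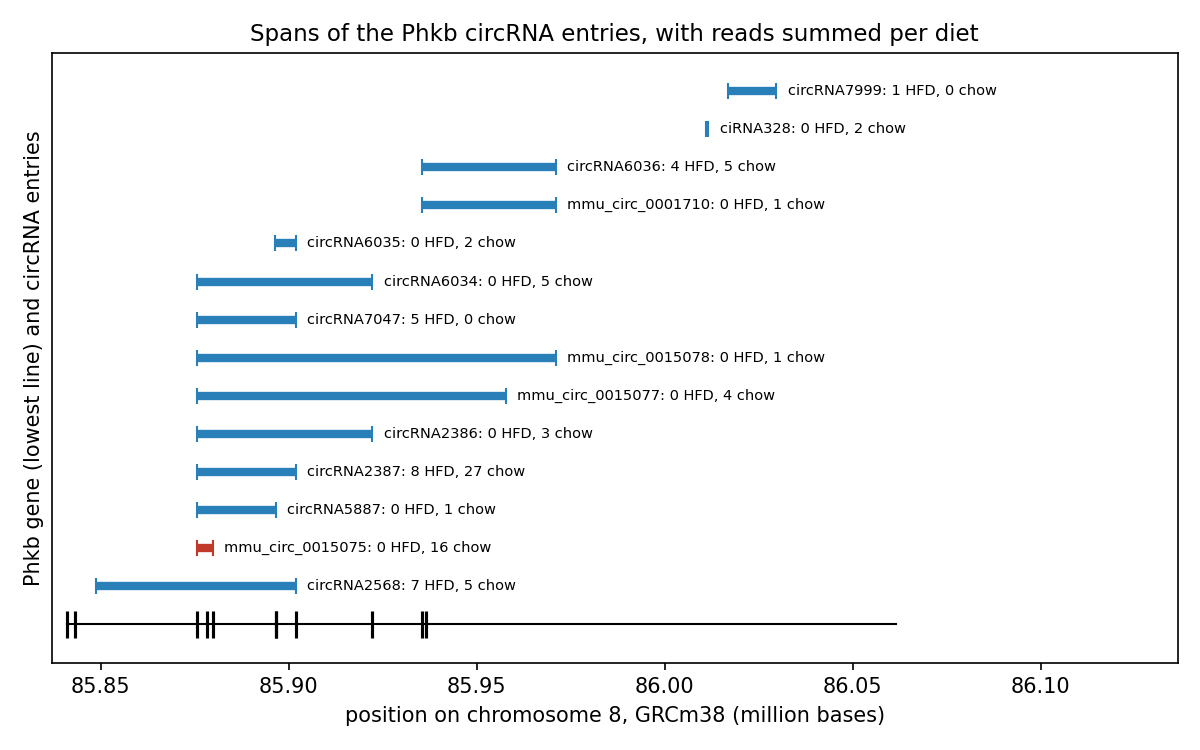
Each bar spans the genomic positions of 1 Phkb circRNA entry on chromosome 8 (GRCm38), labelled with its back-spliced reads summed over the 3 aortas of each diet. The lowest line is the gene with the exons of transcript ENSMUST00000160611 as ticks. The red bar is mmu_circ_0015075, with 0 reads on the HFD and 16 on chow.

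The circle of exons 3 to 5, mmu_circ_0015075, spans chromosome 8 from 85875634 to 85879810 and holds 329 nt of exons that all lie in coding sequence. Chow aortas gave 5, 5 and 6 reads of it, against 0, 0 and 0 on the HFD. The chow aortas were close to each other, at 4.62, 4.56 and 5.22 normalized reads, and no HFD aorta had a read. With 3 reads per library taken as the floor, its mean of 4.80 ± 0.36 normalized reads on chow (SD, n = 3) made it at least 1.42-fold lower on the HFD. Floors and intervals cover counting error only. The study also reports this circle as lower in HFD aortas by quantitative PCR, and that measurement was not examined here. Since the circle was picked on the sequenced aortas, its difference in these counts is a description and not independent evidence. The test took circRNAs found in at least 2 aortas, which 6 entries of the 9 genes were. Among these 6 this circle alone met the criteria, with an adjusted p of 0.577 in edgeR's quasi-likelihood test. The criteria took 4.06% of the 2564 circRNAs tested, or 2.77% counting those lower on the HFD. Of all circRNAs that met the criteria, 71 were lower and 33 higher with TMM, 43 and 40 with library size alone, and 11 and 12 with DESeq2. The circle was also the sole tested entry without overlap between the diets, against 4.13% of all circRNAs tested that were lower without overlap.

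Its back-splice is shown because it is the sequence by which its reads are told from those of the other Phkb circles. Lower case letters are the last 30 bases before the junction and capitals the first 30 bases after it, read 5′ to 3′ from the transcripts of GENCODE (GRCm38). The circles of exons 3 to 5 and of exons 3 to 8 share the bases after the junction and differ before it, while circRNA2568 shares the bases before it with the latter.
mmu_circ_0015075, exon 5 to exon 3: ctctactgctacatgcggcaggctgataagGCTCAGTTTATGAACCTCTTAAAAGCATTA
circRNA2387, exon 8 to exon 3: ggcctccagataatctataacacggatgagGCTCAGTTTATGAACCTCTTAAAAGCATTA
circRNA2568, exon 8 to the exon between exons 2 and 3: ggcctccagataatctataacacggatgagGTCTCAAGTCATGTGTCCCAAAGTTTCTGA

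The primer pair that the study lists for mmu_circ_0015075 was placed on these circles, since 9 Phkb entries span the exons it lies in. The forward primer TGGAGCACTCGGCCATAAAG matched positions 265 to 284 of the circle, and the reverse primer ATCAGCATCGTTGACTTGACA matched positions 89 to 109. Read across the junction, the product was 174 nt on the circle of exons 3 to 5. On the circle of exons 3 to 8 the same pair faced each other at a product of 452 nt with exon 7 of the listed transcript, or 363 nt without it.

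The circle of exons 3 to 8 was the Phkb circle with most reads. Its entry circRNA2387, on chromosome 8 from 85875634 to 85901957, gave 14, 5 and 8 reads on chow against 0, 2 and 6 on the HFD. HFD replicate 3 lay above chow replicate 2, so the diets overlapped. The log2 fold change was -1.38 (standard error 0.89, unadjusted p = 0.122 in edgeR's quasi-likelihood test), and it did not meet the criteria. It met them without HFD replicate 3, at -2.74. The log2 fold change was -0.803 without HFD replicate 1 and -0.972 without chow replicate 1, and both missed the criteria. The entry circRNA7047 begins 1 base further on with the same end, and it had 5 reads in HFD replicate 1 and none elsewhere. With both entries summed, the circle of exons 3 to 8 gave 14, 5 and 8 reads on chow against 5, 2 and 6 on the HFD, and its log2 fold change was -0.63 (standard error 0.70, unadjusted p = 0.366 in the test of summed entries). In normalized reads, HFD replicates 1 and 3 were then above chow replicate 2, and HFD replicate 3 was also above chow replicate 3.

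Of the other Phkb entries, circRNA2568 had reads on both diets. It spans chromosome 8 from 85848675 to 85901957 and starts 1 base inside an exon of 58 nt, at 85848674 to 85848731, that is present in 1 of the 9 annotated Phkb transcripts. Its reads were 3, 2 and 0 on chow against 2, 2 and 3 on the HFD. The diets overlapped, with a log2 fold change of 0.75 (standard error 1.38, unadjusted p = 0.585 in edgeR's quasi-likelihood test). This was 1.39 without chow replicate 1 and 0.192 without chow replicate 3, and it missed the criteria in both. circRNA6036, of later exons on chromosome 8 from 85935409 to 85970997, had 4 reads in HFD replicate 2, 5 in chow replicate 3 and none in the other aortas. The circle that ends at 85922242 was listed as circRNA2386 with 3 reads in chow replicate 1 and as circRNA6034 with 5 reads in chow replicate 3. Neither entry was tested alone. Their sum met the criteria (unadjusted p = 0.0491 in edgeR's quasi-likelihood test of summed entries), as did 90 of the 2646 circles tested with entries summed. The diets overlapped, since chow replicate 2 had 0 reads as the HFD aortas did. No fold is given because its chow mean lay under the floor. The remaining Phkb entries had 1 to 4 reads in all, each in a single aorta.

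**Figure D2:**
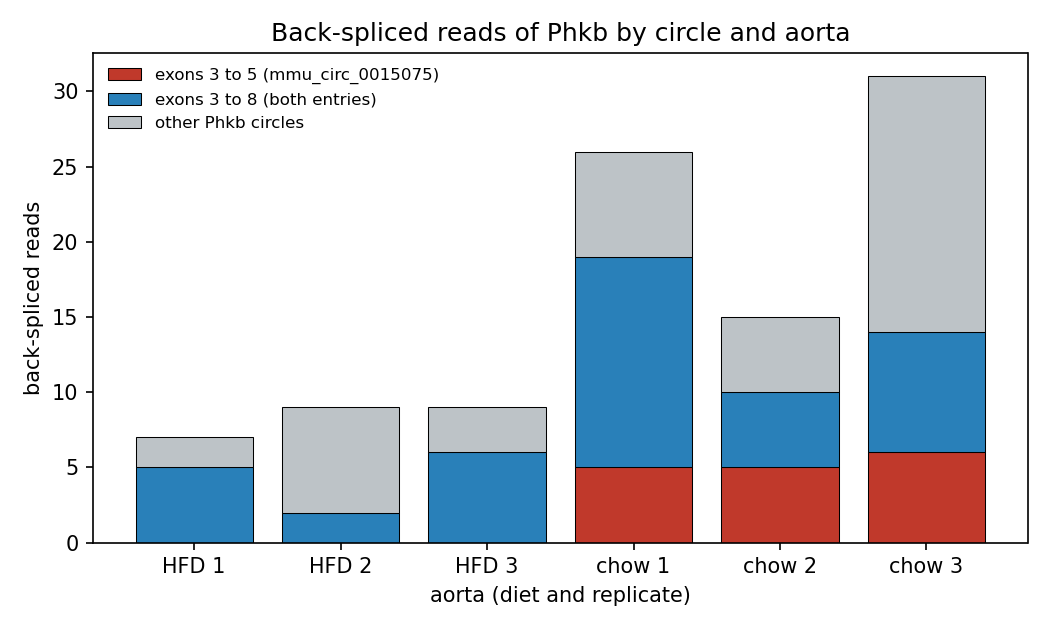
Bars give the back-spliced reads of Phkb in each of the 6 aortas, stacked by circle, with 3 replicates per diet. The circle of exons 3 to 5 has 5, 5 and 6 reads on chow and none on the HFD, and the circle of exons 3 to 8 has reads in every aorta.

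Within Phkb, the circle of exons 3 to 5 was set against the rest. It took 5 of 26, 5 of 15 and 6 of 31 Phkb reads in the chow aortas, or 19.2% (exact Clopper-Pearson 95% interval 6.56 to 39.4), 33.3% (11.8 to 61.6) and 19.4% (7.45 to 37.5). In the HFD aortas it took 0 of 7, 0 of 9 and 0 of 9 reads, which allow shares of up to 42.9%, 33.3% and 33.3%. The zeros of the single HFD aortas therefore allow the shares seen on chow. Pooled over the aortas of a diet, it took 16 of 72 reads on chow, or 22.2% (13.3 to 33.6), and 0 of 25 on the HFD. The floor of 3 reads puts the HFD share at up to 12.0%, just under the lower limit on chow, and the exact interval puts it at up to 13.7%, just over it, so the order of these limits depends on the bound used. The share was 24.0% ± 8.11 on chow (SD, n = 3), and the two-sided exact permutation test gave p = 0.1, below which a comparison of 3 with 3 cannot go.

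The other 13 Phkb entries summed to 21, 10 and 25 reads on chow against 7, 9 and 9 on the HFD. In normalized reads the HFD aortas were at 8.15, 9.13 and 10.9 and the chow aortas at 19.4, 9.12 and 21.7, and chow replicate 2 lay within the range of the HFD aortas. Their log2 fold change was -0.83 (standard error 0.48, unadjusted p = 0.0833 in edgeR's quasi-likelihood test), which missed the criteria. It met them without chow replicate 2, at -1.17, and with the entries given by Ensembl identifier left out, at -1.78. In edgeR's test of circle usage, the circle of exons 3 to 5 was lower relative to the other tested Phkb entries (unadjusted p = 0.0117). These were circRNA2387, circRNA2568 and circRNA6036, and the remaining Phkb entries were not in the test. The adjusted p of the circle was 0.906 over 1543 circles. No size is given for this, since its HFD reads were all 0. An unadjusted p under 0.05 was found for 4.08% of these circles. The circle had been chosen on the same aortas, and without HFD replicate 3 the unadjusted p was 0.052.

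By start, the 8 entries that begin at exon 3 held 22, 11 and 24 reads on chow against 5, 2 and 6 on the HFD, including the circle of exons 3 to 5. In normalized reads the HFD aortas were at 5.82, 2.03 and 7.26 and the chow aortas at 20.3, 10.03 and 20.9, without overlap. This rested on the circle of exons 3 to 5, which was picked on these aortas. Without it the entries held 17, 6 and 18 reads on chow, and chow replicate 2, at 5.47 normalized reads, lay below HFD replicates 1 and 3. By end, the 4 entries that close at the end of exon 8 held 17, 7 and 10 reads on chow against 7, 4 and 9 on the HFD, and the diets overlapped as well. The number of Phkb circles with reads was 5, 5 and 7 on chow against 2, 4 and 2 on the HFD, and it was not corrected for the smaller HFD libraries.

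The alpha subunits of phosphorylase kinase are encoded by Phka1, the muscle form, and Phka2, the liver form, both on chromosome X. Phka1 had a single intronic circRNA, ciRNA662, with 1 read in HFD replicate 2. The 4 Phka2 entries summed to 5, 0 and 2 reads on chow against 0, 2 and 2 on the HFD. Each diet had an aorta at 0, and the log2 fold change was -0.47 (standard error 1.36, unadjusted p = 0.729 in edgeR's quasi-likelihood test). The Phka2 entries circRNA2701 and circRNA4667 tied for most reads. circRNA2701 had 4 reads in chow replicate 1 alone. circRNA4667, of exons 9 to 20 of Phka2, on chromosome X from 160541369 to 160564359, had 2 reads in HFD replicate 3 and 2 in chow replicate 3.

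Gbe1 encodes the glycogen branching enzyme. Its main circle, mmu_circ_0006376 of exons 4 to 7, on chromosome 16 from 70433545 to 70441319, gave 3, 4 and 6 reads on chow against 2, 4 and 4 on the HFD. Normalized reads were 3.74 ± 1.29 on the HFD and 3.88 ± 1.24 on chow (SD, n = 3 each), and the diets overlapped throughout. The log2 fold change was -0.05 with a standard error of 1.03 (unadjusted p = 0.959 in edgeR's quasi-likelihood test), and this error allows a change of either sign. The other Gbe1 entries had 1 and 2 reads, each in a single chow aorta. Over all its entries Gbe1 gave 4, 4 and 8 reads on chow against 2, 4 and 4 on the HFD. Its log2 fold change was -0.34 (standard error 0.86). Its back-splice is given beside those of Phkb as that of a circle with reads in every aorta.
mmu_circ_0006376, exon 7 to exon 4: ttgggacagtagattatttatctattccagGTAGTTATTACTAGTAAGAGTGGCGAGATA

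Together the 9 genes held 35, 19 and 41 reads on chow against 9, 16 and 15 on the HFD, or 0.461%, 0.266% and 0.548% against 0.192%, 0.285% and 0.308% of all back-spliced reads. Chow replicate 2 lay within the range of the HFD aortas. Reads came from a single aorta in 16 of the 22 entries. The median log2 fold change of the 6 tested entries was -0.05, and it was -0.18 over all 2564 circRNAs. With entries absent from a diet placed at their bound, or at 0 where no fold is given, these medians were -0.05 and 0.00.

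A list of 49 further genes of the pathway had 18 entries from 9 genes, with 30 reads on the HFD and 65 on chow. Of its 6 tested entries, none met the criteria in edgeR's quasi-likelihood test, 0 had an unadjusted p under 0.05, and DESeq2 and limma called 0 each. With 4.06% of all circRNAs tested called, a count of 0 among 6 is near the background. Their median log2 fold change was -0.94, against -0.18 over all circRNAs tested, or -0.70 against 0.00 with entries absent from a diet placed as above. Ppp1cb, a catalytic subunit of protein phosphatase 1, which reverses the action of phosphorylase kinase, had the most reads of the list, with 17, 11 and 9 on chow against 4, 8 and 4 on the HFD. Its normalized reads were 5.87 ± 1.95 on the HFD and 11.2 ± 4.06 on chow (SD, n = 3 each) and overlapped, and its log2 fold change was -0.90 (standard error 0.60, unadjusted p = 0.135 in the same test). Prkag2, a regulatory subunit of AMP-activated protein kinase, had 10, 3 and 0 reads against 1, 0 and 7. Prkaca, the catalytic subunit of protein kinase A, had 4 reads in all, and Phkg1, the catalytic subunit of phosphorylase kinase in muscle, and Pgm2, which interconverts sugar phosphates, had 2 each.

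In normalized reads, 3 of the cell type marker lists were lower on the HFD without overlap. Among single host gene sums, 6.03% of those tested were so. Of the tested entries, 0 of 4 smooth muscle, 1 of 4 adipocyte and 0 of 2 brown adipocyte entries met the criteria. Over all circRNAs tested, 4.06% did. In these whole aortas, fewer cells of a type and less RNA per cell cannot be told apart. Smooth muscle markers, 7 of 10 with entries, summed to 24, 20 and 31 reads on chow against 14, 12 and 8 on the HFD. The normalized sums were 12.7 ± 3.34 on the HFD and 22.5 ± 4.36 on chow (SD, n = 3 each), without overlap. Myocd had the most of them, and Tagln, Cnn1 and Actg2 were at 0. Without Myocd the sums were 7, 4 and 10 on chow against 3, 3 and 2 on the HFD, still without overlap. Adipocyte markers, 6 of 9 with entries, summed to 15, 29 and 15 reads against 7, 6 and 8, also without overlap. Acaca, which is not restricted to adipocytes, had the most, while the defining markers Adipoq, Plin1 and Cidec were at 0. Brown adipocyte markers, 4 of 4 with entries, summed to 4, 8 and 5 reads against 3, 0 and 1, led by Prdm16. Without Prdm16 the brown adipocyte sums were 0, 3 and 0 on chow against 2, 0 and 1 on the HFD and overlapped, and without Acaca the adipocyte sums, 5, 8 and 6 against 1, 2 and 5, overlapped as well. As shares of all back-spliced reads, which use no TMM, the smooth muscle and brown adipocyte lists overlapped between the diets, and the adipocyte list did not. The part of these lists in the Phkb values was not tested.

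In the remaining marker lists the diets overlapped, except for the sum of fibroblast markers, and this overlapped too without Col3a1. Macrophage and leukocyte markers, 6 of 8 with entries and led by Adgre1, summed to 13, 6 and 8 reads on chow against 8, 11 and 9 on the HFD, with Cd68 and Cd74 at 0. Endothelial markers, 3 of 6 and led by Pecam1, summed to 3, 2 and 5 against 3, 3 and 8, with Cdh5, Kdr and Flt1 at 0. Fibroblast markers, 3 of 6 and led by Col3a1, summed to 0, 0 and 1 against 1, 5 and 5, with Pdgfra, Col1a2 and Lum at 0. HFD replicate 1 and chow replicate 3 had 1 read each, and without Col3a1 the sums were 0, 0 and 1 against 1, 0 and 4. Skeletal muscle markers, 3 of 15 and led by Ttn, summed to 5, 0 and 0 against 0, 0 and 9. Heart muscle markers, 1 of 5, Ryr2, summed to 2, 2 and 4 against 2, 1 and 0. A gene at 0 here had no back-spliced read, which does not show that its linear RNA was absent.

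The circRNAs of other genes with normalized reads most like those of mmu_circ_0015075 were found by the root mean square difference over the 6 aortas among 2560 circRNAs. circRNA2538 of Dennd1b, with 4, 5 and 5 reads on chow against 0, 0 and 0 on the HFD, had a difference of 0.518 normalized reads. mmu_circ_0009280 of Itga8 differed by 0.607 and had 4, 5 and 6 reads against 1, 0 and 0. mmu_circ_0010463 of Tbck differed by 0.745 and had 5, 3 and 6 reads against 0, 0 and 0. For the Phkb sum, each profile was divided by its own mean and compared with 396 other host genes of at least 20 reads. Epb41l5 differed by 0.148, Tent4a by 0.180 and Ltbp1 by 0.222. Epb41l5 had 7, 4 and 10 reads on chow against 3, 2 and 3 on the HFD, and as for Phkb, chow replicate 2 was the lowest of its diet.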

How the data were processed

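CircRNAs of 6 aortas, 3 per diet, were compared. The authors used Cutadapt for trimming, TopHat-Fusion for back-splices among unmapped reads, and CIRCexplorer with CIRI for assembly. The counts they deposited are raw numbers of back-spliced reads. The signal they deposited is SRPBM, which relates a count to the depth of its library. The genome build and the way in which the callers were joined are not given in the sources used here. Starts of exonic entries given by gene symbol matched exon starts of GENCODE (GRCm38). Per the labels, RNase R was used to isolate circRNA, while the library methods name depletion of ribosomal RNA, and whether the sequenced libraries were treated with RNase R is not given in the sources used here. No source used here ties each library to a single mouse, so p-values measure the spread between these samples. The authors' columns of fold changes, p-values and q-values were not used.

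Counts were tested with edgeR 4.0.16 (R 4.3.3) after TMM normalization, for circRNAs or host gene sums with reads in at least 2 aortas, with Benjamini-Hochberg adjustment over all tested, and circle usage with diffSpliceDGE. Normalized reads are scaled to the mean effective library size. Single values had two-sided exact permutation tests (scipy 1.17.1). The alternatives were DESeq2 1.42.0, limma 3.58.1 on log2 SRPBM plus 13.6, other scalings and filters, entries 1 base apart summed, the replicate block and each aorta left out. Scripts were tested on simulated data. The members and lists were chosen with earlier results of these data known. The named entries were those of the 9 genes with reads in at least 2 aortas, the entry with most reads of each gene, pathway entries that met the criteria with the 5 pathway genes with most reads, and the 3 nearest circRNAs and host genes. Pgm2 tied with Phkg1 for the last pathway place, and circRNA2701 with circRNA4667 for most reads of Phka2. The values of 1 of these pathway genes are not reported here. Within a diet, pairs of libraries differed beyond counting noise, with a chi-square of 2.24 to 3.35 for each degree of freedom. The mRNA libraries were not analysed here.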

Additional observations from a re-analysis of the deposited data

How the results depend on the processing

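Depth limits these results, with 97 reads for Phkb. The circle of exons 3 to 5 was lower on the HFD and met the criteria under all 16 alternatives. The difference in its share of Phkb reads, -24.0 percentage points, could not change when an HFD aorta was left out or entries were summed, since every HFD share is 0, and it ranged from -30.6 to -19.3 under the alternatives that could change it. The difference in the share of all reads from the 9 genes moved by less than the spread between replicates under its 9 alternatives, of which summing entries could not change it. No entry of the pathway list met the criteria under any of its 16.

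The Phkb sum missed the criteria with library size alone (-0.964) and without chow replicate 3, and ranged from -1.48 to -0.996 with an aorta left out. It was -2.27 with the entries given by Ensembl identifier left out, a setting chosen after seeing the data. The other Phkb circles met them without chow replicate 2, with a range of -1.17 to -0.596, and with those entries left out (-1.78). Circle usage had an unadjusted p above the threshold without HFD replicate 3, and its relative log2 fold change, fitted over HFD reads of 0 and no measured size, ranged from -4.60 to -3.75 with an aorta left out and was -3.23 with those entries left out. Entries of the 9 genes that met the criteria numbered 2 in place of 1 with limma and without HFD replicate 3, where circRNA2387 was added, and with entries 1 base apart summed, where circRNA2386 was added, with a range of 1 to 2 over the aortas left out. The causes were not tested.

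Among all circRNAs, 104 met the criteria, against 23 with DESeq2, 49 with at least 10 reads, 64 with Ensembl-identifier entries left out and 57 to 117 with an aorta left out, where HFD replicates 2 and 3 and chow replicate 1 each moved it by over 1.5 times (59, 58 and 57 without them). Among host gene sums, 103 met them, against 34 with DESeq2 and 55 with at least 10 reads. With at least 10 reads, fewer circRNAs and host genes were tested, 608 and 881.

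The replicate block gave 30 circRNAs and 37 host genes, all of them among those called without it. Same-numbered aortas come from different mice and their deviations from the diet means correlated at -0.141, -0.143 and -0.049, so the numbers were not taken as pairs.

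Of 101 other values for single circles and genes, 84 kept their direction and their side of the criteria, 2 came to meet them and 15 changed sign, none of which met the criteria. Gbe1 changed sign without chow replicate 3, with a range of -0.553 to 0.031. Phka2 was 0.646 with Ensembl-identifier entries left out, and ranged from -1.05 to 0.632 with an aorta left out. mmu_circ_0006376 was 0.121 with DESeq2, 0.156 with library size alone and 0.001 with entries summed, and ranged from -0.281 to 0.218. circRNA4667 ranged from -0.242 to 0.862. circRNA6036 was 0.131 with library size alone and 0.080 with the replicate block, and ranged from -0.633 to 0.510.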

Other observations

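Over the whole table, 475 pairs of entries were 1 base apart with the other end shared. Of the 1672 values of these pairs with reads in an aorta, 9 had reads in both entries, which is 0.538%. Exonic entries whose host gene was given by symbol numbered 7896, and all of them started at an annotated exon start. Of the 1096 exonic entries given by Ensembl identifier, 954 started 1 base after an exon start. A value of 1 read made up 57.1% of the values above 0 in the first kind and 0.62% in the second. In Phkb, 5 of the 14 entries were of the second kind, and all started 1 base inside an annotated exon. mmu_circ_0015075 had no entry 1 base from it.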
